A study of Caenorhabditis elegans with 6 samples.

Results

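Small RNAs bound to the Argonaute protein WAGO-4 in Caenorhabditis elegans were compared between the F1 progeny of animals exposed to oma-1 double-stranded RNA (dsRNA) and the exposed animals themselves, the P0 generation. The comparison takes 2 of the 6 libraries of the series, 1 per group, so no difference between them has a replicate check and no test was made. Both libraries came from animals of the genotype 3xFLAG::GFP::WAGO-4 that are labelled young adults and were kept at 20 °C, and both hold small RNAs recovered with an anti-FLAG antibody. The F1 animals descended from P0 animals on oma-1 dsRNA, and the P0 animals were on oma-1 dsRNA when collected. Libraries of the same genotype on the bacterial strain HT115, without oma-1 dsRNA, and from the F3 generation of the same treatment are given beside them where a value needs a baseline. No input or untagged precipitate was used here, so a level describes the precipitate and not enrichment over the animal. The growth notes differ between the libraries. Those of F1 and F3 describe larvae hatched on plates without food, F3 also embryos exposed to UV light, and those of P0 and HT115 describe embryos held at lower temperatures. None of these notes was tested, and a difference between F1 and P0 cannot be told apart from what they record.

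In C. elegans, a small amount of dsRNA is amplified by RNA-dependent RNA polymerases, which use the target mRNA as template and make short antisense RNAs. Argonautes of the WAGO class carry these antisense RNAs, and some of them act in the germline, where silencing can pass to progeny that never met the dsRNA. WAGO-4 is a cytoplasmic member of this class and is known for its part in the inheritance of RNAi. oma-1 encodes a CCCH zinc-finger RNA-binding protein needed, redundantly with its paralog OMA-2, for oocyte maturation.

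A read was antisense when it lay on the strand opposite to the annotated gene. The F1 library held 9793525 reads assigned to genes, of which 5449458 were antisense, and the P0 library held 8667735, of which 6031076 were antisense. The antisense share was 55.6% in F1 and 69.6% in P0, beside 77.8% in HT115 and 72.5% in F3. Each gene's antisense reads were divided by the antisense total and expressed as counts per 1000000 (CPM). Dividing by the total of both strands instead lowers every log2 ratio of F1 over P0 by 0.32, and both scales are given where that matters. All intervals are at 95% and cover counting error only, with each read taken as independent. Amplified copies of 1 molecule were not collapsed by a molecular tag, so the intervals may be too narrow even for that.

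The antisense small RNAs of the target itself were lower in F1 than in P0. oma-1 lies on chromosome IV, from 8888976 to 8890999 on the plus strand in the WBcel235 annotation. It had 1725 antisense reads in F1, against 8684 in P0. These are 316.5 CPM (exact Poisson interval 302 to 332) in F1 and 1440 CPM (1410 to 1470) in P0. The F1 level was 0.220 times the P0 level (exact conditional binomial interval 0.209 to 0.232), and 0.176 times (0.167 to 0.185) over the total of both strands. The animals on HT115 had 713 oma-1 antisense reads or 96.5 CPM, and F3 had 1443 reads or 197 CPM. In order of level the libraries were P0, F1, F3 and HT115, and no pair of neighbours in that order had overlapping counting intervals. The level above HT115 that F1 kept was 16.4% of that in P0, or 10.9% over the total of both strands. Among the 5874 measured genes, defined as those with at least 25 CPM in the higher of the 2 libraries, oma-1 was the third lowest in F1 over P0. Of the 500 measured genes nearest to it in P0 level, 0 had a ratio as low, and their median log2 ratio was 0.00 against -2.19 for oma-1.

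The numbers of oma-1 sense reads were close, and their ratio depends on the denominator. There were 746 in F1 and 707 in P0, and 361 and 470 in HT115 and F3. Per 1000000 reads of both strands these were 76.2 in F1 and 81.6 in P0, a ratio of 0.934 (0.841 to 1.04). Per 1000000 sense reads they were 172 in F1 and 268 in P0, a ratio of 0.640 (0.577 to 0.711). Antisense reads made up 69.8% of all oma-1 reads in F1 (Wilson interval 67.97 to 71.6) and 92.5% in P0 (91.9 to 93.0), against 66.4% (63.5 to 69.1) in HT115.

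The gene moe-3, which encodes a zinc-finger protein related to OMA-1, had the lowest ratio of all measured genes. It had 2 antisense reads in F1 and 207 in P0, or 0.367 CPM (0.0444 to 1.33) and 34.3 CPM (29.8 to 39.3). The F1 level was 0.0107 times the P0 level, with an interval of 0.00129 to 0.0391 that the 2 reads leave wide. HT115 had 6 reads and F3 had 5, so P0 stood alone and the other 3 libraries were all near 1 CPM or below. moe-3 shares its span with F32A11.1 on the other strand, and whether reads of that gene were counted for it was not tested. In the paralog oma-2 the libraries hardly differed. It had 469 antisense reads (86.1 CPM) in F1 and 479 (79.4 CPM) in P0, a ratio of 1.08 (0.952 to 1.23), and 84.8 and 92.2 CPM in HT115 and F3. The genes next to oma-1 on chromosome IV did not share its difference either. spr-2 had 116 CPM in F1 and 92.7 CPM in P0, a ratio of 1.26 (1.12 to 1.41). C27B7.2 stood at 1.07 (0.910 to 1.25) and rad-54.L2 at 0.991 (0.933 to 1.05).

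**Figure D1:**
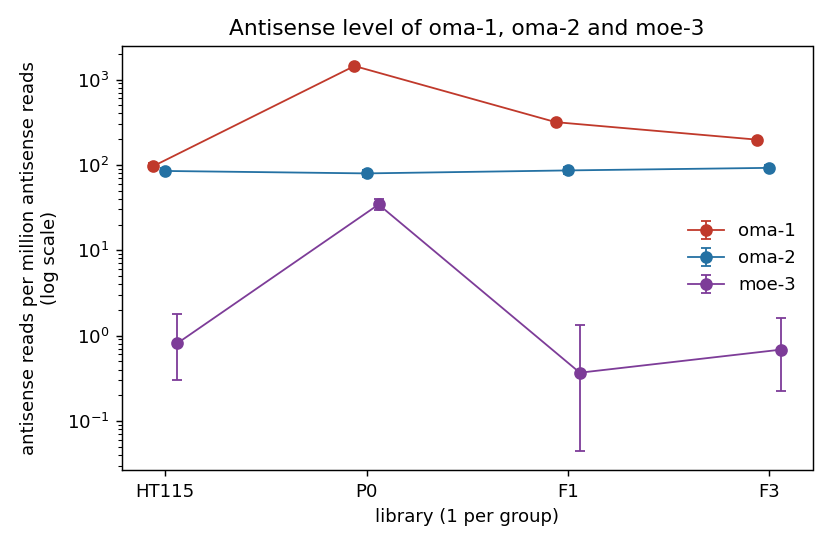
Antisense level in CPM of antisense reads (log scale) of oma-1, its paralog oma-2 and the related gene moe-3 in the HT115, P0, F1 and F3 libraries, with exact Poisson intervals at 95% and 1 library per group. oma-1 stands at 316.5 CPM in F1 and 1440 CPM in P0, moe-3 is above 1 CPM only in P0, and oma-2 lies between 79.4 and 92.2 CPM throughout.

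Beyond the target the antisense profiles of F1 and P0 were close. Of the 5874 measured genes, 5615 were protein-coding, and 95.6% differed by less than 1.5-fold. Of all measured genes 39.8% were higher in F1 by any amount and 60.2% lower. The median log2 ratio was -0.05, and -0.36 over the total of both strands. At 4-fold, 1 gene was higher in F1 (0.017% of those measured) and 6 were lower (0.102%). At 2-fold, 32 genes were higher (0.545%) and 45 lower (0.766%). Over the total of both strands the 2-fold counts were 6 higher (0.112%) and 78 lower (1.46%) of 5339 genes, and the 4-fold counts were 0 higher and 4 lower (0.0749%), so the balance of higher and lower genes depends on the denominator. Most genes past 2-fold were weakly covered. In F1 and P0 together, 24 of the 32 higher genes and 33 of the 45 lower ones had a mean level under 50 CPM, and 16 of the 32 and 31 of the 45 reached 25 CPM in 1 of the 2 libraries only. At a minimum of 100 CPM, 7 higher and 5 lower genes were left.

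**Figure D2:**
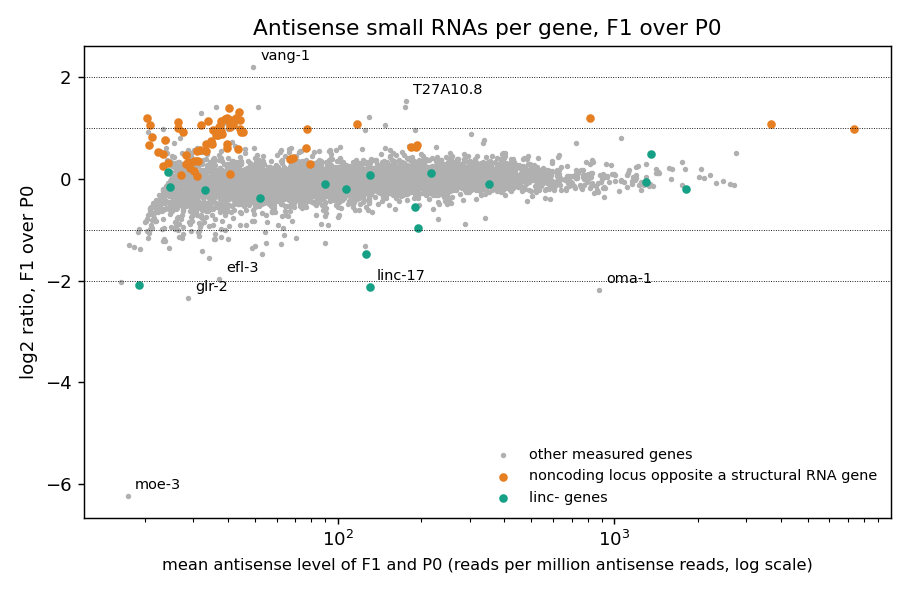
Log2 ratio of antisense level, F1 over P0, against the mean level of both libraries (log scale) for the 5874 measured genes, with dotted lines at 2-fold and 4-fold. oma-1 lies alone among abundant genes at -2.19, moe-3 lies lowest at -6.23, and noncoding loci opposite structural RNA genes lie above 0.

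Of the 45 genes at least 2-fold lower in F1, 39 were protein-coding, 3 were long intergenic noncoding RNAs and 3 were other noncoding loci. Of all 5874 measured genes, 5615 were protein-coding and 17 were long intergenic noncoding RNA genes. Protein-coding genes with no structural RNA gene opposite made up 80% of the 45, beside 94.9% of all measured genes. The genes at least 4-fold lower in F1 beside oma-1 and moe-3 were a receptor gene, a nuclear receptor gene and noncoding loci. glr-2, an ionotropic glutamate receptor subunit of neurons, had 51 antisense reads in F1, 290 in P0, 228 in HT115 and 82 in F3. The ratio of F1 to P0 was 0.195 (0.142 to 0.263). It overlaps spliced leader RNA genes on the other strand. linc-17, a long intergenic noncoding RNA, had 264 reads in F1 and 1279 in P0, or 48.4 and 212 CPM, a ratio of 0.228 (0.199 to 0.261). Its level in HT115 was 246 CPM and in F3 it was 32.6 CPM, so F1 and F3 were both low and P0 and HT115 both high. linc-14 had 39 reads in F1 and 186 in P0, a ratio of 0.232 (0.160 to 0.329), and nhr-11, a nuclear hormone receptor, had 35 and 159, a ratio of 0.244 (0.164 to 0.353). efl-3, an E2F-family transcription factor, lay just outside the 4-fold limit with 82 reads in F1 and 357 in P0, a ratio of 0.254 (0.197 to 0.324). It had 435 reads in HT115 and 77 in F3, the same split as linc-17. Of the next lowest genes, T07F8.1 had a ratio of 0.338 (0.265 to 0.427), linc-24 of 0.356 (0.316 to 0.402) and Y54G2A.36 of 0.356 (0.295 to 0.429). linc-24 is the best covered of these, with 363 reads in F1 and 1127 in P0. Among the 10 lowest protein-coding genes without a structural RNA gene opposite there was also ttr-20, of the transthyretin-related family, with 56 reads in F1 and 158 in P0 and a ratio of 0.392 (0.284 to 0.535).

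The 1 gene at least 4-fold higher in F1 was vang-1, the ortholog of the planar cell polarity gene Van Gogh. It had 440 antisense reads in F1 and 107 in P0, or 80.7 and 17.7 CPM, a ratio of 4.55 (3.68 to 5.68). Over the total of both strands the ratio was 3.64 (2.94 to 4.54), below 4-fold. HT115 had 78.9 CPM, close to F1, and F3 had 32.6 CPM, so P0 was the lowest library and F3 also lay below F1 and HT115. vang-1 shares part of its span with B0410.3 on the other strand. The other protein-coding genes past 2-fold over the antisense total were jmjd-3.3, a histone demethylase gene of the JmjC family, and pals-26. Over the reported and alternative settings the log2 ratio of jmjd-3.3 ran from 0.344 to 1.25 and that of pals-26 from 0.557 to 1.13. Whether either was past 2-fold thus depends on the setting. jmjd-3.3 had 982 reads in F1 and 470 in P0, a ratio of 2.31 (2.07 to 2.59), and 540 and 413 reads in HT115 and F3, which leaves F1 as the high library. pals-26 had 288 reads in F1 and 150 in P0, a ratio of 2.12 (1.74 to 2.61). Next in order came vglu-2 at 1.98 (1.53 to 2.57) and sma-1, which encodes a spectrin heavy chain, at 1.89, with 147 reads in F1 and 86 in P0. The ribosomal protein gene rpl-34 was the most abundant of the group, with 1340 CPM in F1 and 775 CPM in P0, a ratio of 1.73 (1.67 to 1.79).

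Most of the 32 genes at least 2-fold higher in F1 over the antisense total were not protein-coding. Over the total of both strands only 6 genes of any kind were at least 2-fold higher. Of all 5874 measured genes, protein-coding ones included, 57 (0.970%) lay opposite tRNA genes and 3 (0.0511%) opposite rRNA genes. Another 20 (0.340%) lay opposite snRNA genes and 29 (0.494%) opposite snoRNA genes. Among the 32 there were 16 noncoding loci opposite tRNA genes, 2 opposite rRNA genes, 2 opposite snRNA genes and 2 opposite snoRNA genes. Another 4 lay opposite protein-coding genes, 2 were the signal recognition particle RNA genes srpr-1.1 and srpr-1.2, and 1 was the 5S rRNA gene rrn-4.4. A read antisense to a locus opposite another gene is a sense read of that other gene, so these counts hold the strand of the tRNA or rRNA itself. All 35 measured noncoding loci opposite tRNA genes were higher in F1 over the antisense total, but 9 of them reached 25 CPM in F1 only. They are 35 of 352 such loci. Their median log2 ratio was 0.95, and 0.63 over the total of both strands. The lowest of them, at a log2 ratio of 0.04, was lower in F1 over the total of both strands. Over all 352 loci the antisense reads numbered 13977 in F1 and 9288 in P0, or 2565 and 1540 CPM. The ratio of that sum was 1.67 (1.62 to 1.71), and 1.33 (1.30 to 1.37) over the total of both strands. The sense reads counted for the tRNA genes opposite them had a ratio of 1.42 (1.38 to 1.47) over the total of both strands. Over the sense total, the sum for the loci stood at 0.913 (0.890 to 0.938). tRNA genes come in near-identical copies, and the labels do not say how reads were split between them.

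The 3 loci opposite the large rRNA genes were the most abundant features past or near 2-fold. F31C3.14, opposite rrn-3.1, had 53196 antisense reads in F1 and 29820 in P0, or 9762 and 4944 CPM, a ratio of 1.97 (1.95 to 2.00). F31C3.15, opposite rrn-1.1, stood at 2.09 (2.05 to 2.14), and F31C3.13, opposite rrn-1.2, at 2.27 (2.18 to 2.38). Together the 3 loci had a ratio of 1.62 (1.61 to 1.64) over the total of both strands, beside 1.55 (1.54 to 1.55) for the sense reads of the rRNA genes they face. Over the sense total the ratio of the loci was 1.11 (1.10 to 1.13). A pair of loci face yolk genes. T27A10.8, opposite vit-3, had 1427 antisense reads in F1 and 548 in P0, a ratio of 2.88 (2.61 to 3.19). F59D8.3, opposite vit-4, had 1381 and 578, a ratio of 2.64 (2.40 to 2.92). The sense reads of the yolk genes themselves ran the same way: vit-3 had 27763 in F1 and 11269 in P0, and vit-4 had 29059 and 12437. ZK131.14, opposite the histone gene his-16, had 45.3 CPM in F1 and 18.6 CPM in P0, a ratio of 2.44 (1.94 to 3.08). Of genes with no gene on the other strand, 5 were at least 2-fold higher in F1 and 23 at least 2-fold lower.

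F3 and HT115 took no part in the F1 to P0 ratio that chose the genes past 2-fold. However, 31 of the 45 lower genes reached 25 CPM in P0 only, and 16 of the 32 higher genes in F1 only. Of all 5874 measured genes, 224 did so in P0 only and 72 in F1 only. The genes are not replicates, and the shares that follow describe 1 library per group. Of the 45 genes lower in F1, 41 were lower in F3 than in HT115 (91.1%), beside 52.2% of all measured genes, and their median F3 level was 0.611 times that of HT115, beside 0.993. oma-1 and linc-17 lay at the ends of this range. oma-1 had 197 CPM in F3 and 96.5 CPM in HT115, and linc-17 had 32.6 CPM in F3 and 246 CPM in HT115. Of the 32 genes higher in F1, 28 were higher in F3 than in HT115 (87.5%), beside 47.8% of all measured genes, with a median of 1.68. Most of these 32 lie opposite another gene, so their counts hold that gene's sense reads. Sense reads made up 27.5% of the reads in F3 and 22.2% in HT115. tRNA genes come in near-identical copies, so the 16 loci opposite them may not be separate members. How far this accounts for the 28 was not tested. The growth notes divide F1 and F3 from P0 and HT115 in the same way, and their part in these values was not tested.

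**Figure D3:**
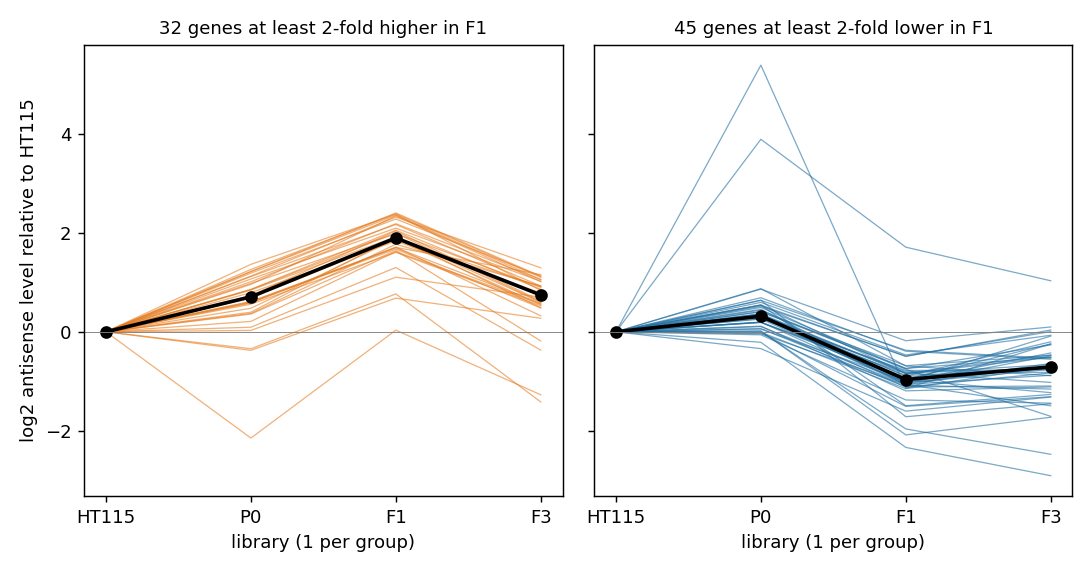
Log2 antisense level relative to HT115 of each gene at least 2-fold higher (left, 32 genes) or lower (right, 45 genes) in F1 than in P0, across HT115, P0, F1 and F3, with the median in black and 1 library per group. In the right panel oma-1 and moe-3 are the lines that stand far above the rest in P0, and the median over HT115 is 0.61-fold in F3.

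Germline genes were nearly level. Among 40 oocyte and early embryo regulators 38 were measured, of which 8 were higher in F1 and 30 lower, with a median log2 ratio of -0.10 beside -0.05 over all measured genes, a median that became 0.023 with both strands summed. The whole list held 0.935% of the antisense reads in F1 and 1.09% in P0, a ratio of 0.855 (0.845 to 0.865). Without oma-1 and moe-3 the ratio was 0.955 (0.943 to 0.966), so most of the list's difference came from the target. cpg-2 and cpg-1, chondroitin proteoglycans of the eggshell, stood at 0.709 (0.604 to 0.832) and 0.739 (0.669 to 0.816). The CCCH gene pos-1, which specifies the posterior of the embryo, stood at 0.745 (0.612 to 0.905). Over the reported and alternative settings its log2 ratio ran from -0.746 to 0.259, so its direction depends on the setting. pie-1, a repressor of transcription in the germline blastomeres, stood at 1.20 (1.07 to 1.34) and spn-4 at 1.19 (1.10 to 1.28). gld-1, a translational repressor of the germline, was at 0.930 (0.874 to 0.990) and mex-5, which sets up the embryo's polarity, at 0.923 (0.835 to 1.02). Of 38 measured meiosis genes 8 were higher and 30 lower, with a median of -0.11 and 0 past 2-fold. In both lists the part lower in F1 exceeded the 60.2% of all measured genes, of which 1.31% differed at least 2-fold. spo-11, which makes the meiotic double-strand breaks, had 146 antisense reads in F1 and 226 in P0, a ratio of 0.715 (0.577 to 0.884).

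Antisense levels of RNAi machinery genes were close too. Of 12 measured Argonaute genes 4 were higher in F1 and 8 lower, with a median of -0.11, and 0 differed 2-fold. These counts were near the background, in which 60.2% of measured genes were lower and 1.31% differed at least 2-fold. wago-4 itself had 12292 antisense reads in F1 and 14541 in P0, a ratio of 0.936 (0.913 to 0.958). hrde-1, the nuclear Argonaute of RNAi inheritance, stood at 0.948 (0.911 to 0.986) and csr-1, the Argonaute of expressed germline genes, at 0.899 (0.872 to 0.928). The lowest were sago-2 at 0.739 (0.665 to 0.820) and ppw-1 at 0.757 (0.703 to 0.816), both secondary Argonautes, and the highest was alg-5 at 1.13 (1.04 to 1.22). Of 16 measured genes of nuclear RNAi and inheritance 3 were higher and 13 lower, with a median of -0.10. set-32, a histone methyltransferase gene, was the lowest of them at 0.816 (0.765 to 0.870). Of 14 measured RNA-dependent RNA polymerase and mutator genes 5 were higher and 9 lower. ego-1, the germline RNA-dependent RNA polymerase, stood at 0.910 (0.867 to 0.955) and its somatic counterpart rrf-1 at 0.847 (0.797 to 0.899), while smut-1, a helicase gene of the mutator class, was at 1.24 (1.17 to 1.32). The P granule gene pgl-1 stood at 0.881 (0.847 to 0.916) and znfx-1, a helicase gene of the Z granule, at 0.874 (0.841 to 0.908).

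Targets of ERGO-1, an Argonaute that carries small RNAs made from a set of duplicated genes, held 0.120% of antisense reads in F1 and 0.159% in P0. The ratio was 0.752 (0.729 to 0.777), and 0.185% and 0.112% were held in HT115 and F3. Of 9 measured targets 4 were higher and 5 lower, near the 60.2% lower among all measured genes, and 0 were past 2-fold. K02E2.6 had 1098 reads in F1 and 2256 in P0, a ratio of 0.539 (0.501 to 0.579), C44B11.6 had 1370 and 2586, a ratio of 0.586 (0.549 to 0.626), and Y37E11B.2 had 914 and 1759, a ratio of 0.575 (0.530 to 0.623). All 3 were lower in F3 than in HT115 as well. E01G4.5 was higher, with 1124 reads in F1 and 975 in P0, a ratio of 1.28 (1.17 to 1.39), and fbxb-37 stood at 1.44 (1.25 to 1.67). Long intergenic noncoding RNA genes were mostly lower. Of 17 measured, 13 were lower and 4 higher, and 3 were at least 2-fold lower. Of all measured genes 60.2% were lower and 0.766% at least 2-fold lower. The list's median was -0.20, which became 0.11 with no minimum level, beside -0.05 for all measured genes. The summed level of all 170 stood at 0.939 (0.925 to 0.952). linc-7, with 1581 CPM in F1 and 1129 CPM in P0, was higher at 1.40 (1.36 to 1.44).

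Most measured ribosomal protein genes, which encode the subunits of the ribosome, were higher in F1 over the antisense total. Of 76 genes 67 were measured, of which 57 were higher in F1 and 10 lower, beside 39.8% higher among all measured genes. The list's median log2 ratio was 0.20, beside -0.05 for all measured genes, and 0 members were past 2-fold. The list held 1.33% of antisense reads in F1 and 1.08% in P0, a ratio of 1.23 (1.22 to 1.25), with 1.25% in HT115 and 1.12% in F3. Over the total of both strands the median was -0.13, beside -0.36 for all measured genes. The sign thus turns with the denominator, while the list stood above all measured genes on both scales. rpl-13A had 4898 reads in F1 and 3352 in P0, a ratio of 1.62 (1.55 to 1.69), and rpl-32 had 1490 and 1077, a ratio of 1.53 (1.41 to 1.66), while rps-12 stood at 0.905 (0.761 to 1.07). X-linked protein-coding genes had 126 of 2662 measured, 79 higher and 47 lower, with a median of 0.12. Over the total of both strands it became -0.19, again above the -0.36 of all measured genes. Protein-coding genes of the 5 autosomes had medians between -0.06 and -0.04. Intestine genes and vitellogenins had 0 measured members on the antisense strand.

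**Figure D4:**
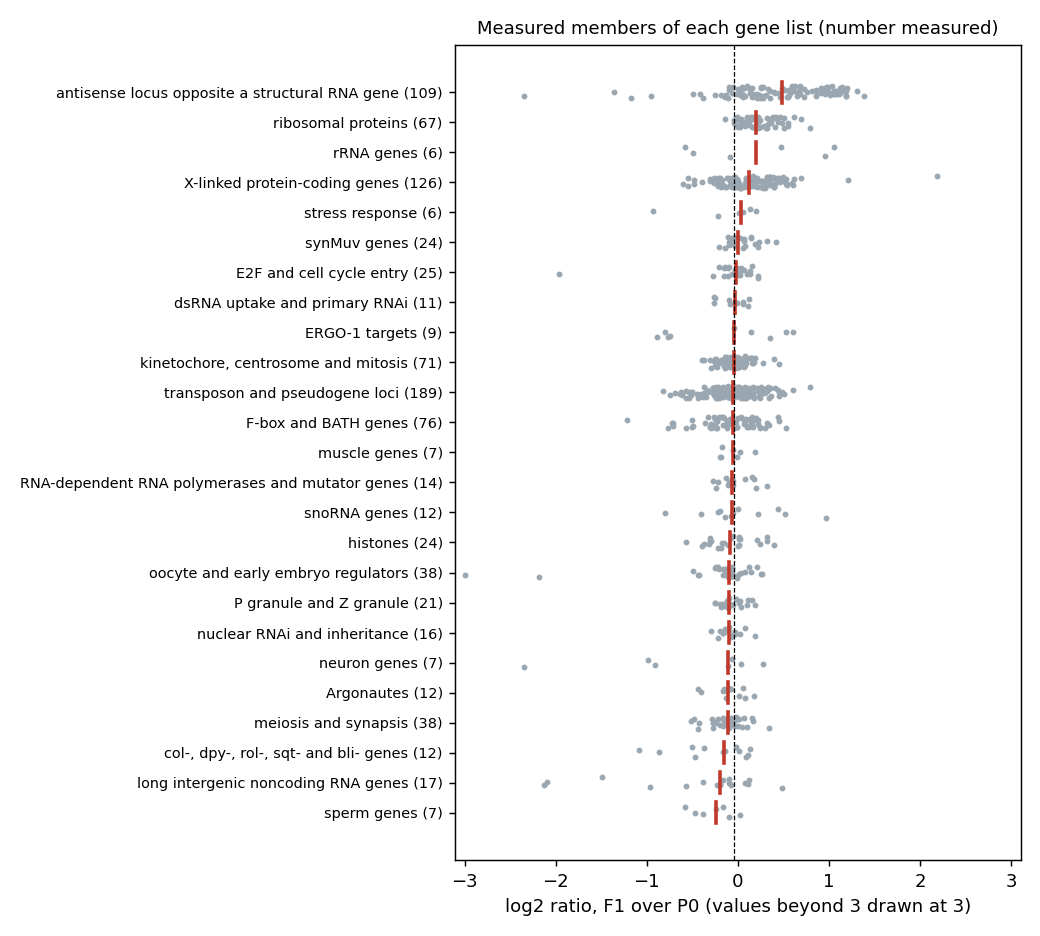
Log2 ratio of antisense level, F1 over P0, of the measured members of each list with at least 5 of them, as grey points, with the list's median as a red bar and the median of all measured genes as a dashed line. Loci opposite structural RNA genes have a median of 0.48 and ribosomal protein genes 0.20, and most other lists lie close to the dashed line.

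Sense reads made up 44.4% of the reads in F1 and 30.4% in P0. Sense reads of protein-coding genes made up 31.4% of the F1 library and 21.4% of the P0 library, and antisense reads of the same genes 52.6% and 66.5%. Sense reads of rRNA genes made up 9.69% and 6.29%. Read against the sense total, the profiles were again close. Of 5601 genes with at least 25 sense reads per 1000000 in the higher library, 43 were at least 2-fold higher in F1 (0.768%) and 89 lower (1.59%), with 4 (0.0714%) and 2 (0.0357%) past 4-fold.

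**Figure D5:**
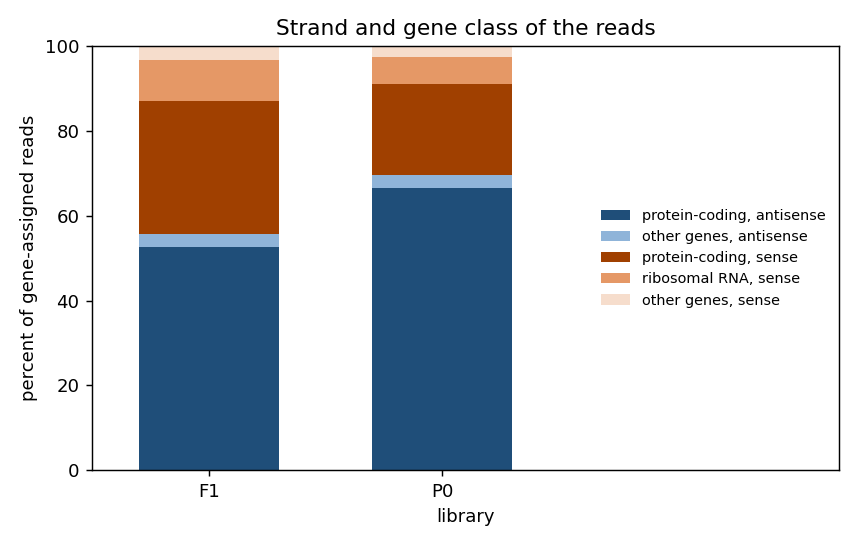
Percent of all gene-assigned reads in F1 and P0, stacked by strand and gene class, 1 library per group. Antisense reads of protein-coding genes take 52.6% in F1 and 66.5% in P0, and sense reads of protein-coding genes take 31.4% in F1 and 21.4% in P0.

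Collagen genes with col- symbols, which encode structural proteins of the cuticle made by the epidermis at each moult, took a larger part of the sense reads in F1. Of 157 such genes 37 were measured on this strand, of which 36 were higher and 1 lower. Of these, 15 were at least 2-fold higher, and the median log2 ratio was 0.85 beside -0.06 over all genes measured on this strand, of which 41.2% were higher and 58.8% lower by any amount. All 157 together held 1.42% of sense reads in F1 and 0.790% in P0, a ratio of 1.80 (1.77 to 1.83), with 1.02% in HT115 and 1.93% in F3. A wider list that adds the dpy-, rol-, sqt- and bli- genes, not all of them collagens, had 46 of 53 higher. col-81 had 538 sense reads in F1 and 58 in P0, a ratio of 5.63 (4.29 to 7.52), with 60 in HT115 and 1535 in F3. col-139 had 279 and 36, and col-129 had 294 and 41, both past 4-fold. col-140 was the collagen among the 10 genes that gained the largest share of sense reads, with 10233 sense reads in F1 and 3336 in P0, a ratio of 1.86 (1.79 to 1.94). On the antisense strand the col- genes held 0.0400% of reads in F1 and 0.0500% in P0, a ratio of 0.801 (0.757 to 0.846). Of 5 measured there, 1 was higher and 4 lower, and col-38 was more than 2-fold lower, with 125 reads in F1 and 295 in P0.

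Intestine genes were also mostly higher on the sense strand, with 15 of 18 higher, 5 at least 2-fold higher and a share of 0.362% in F1 against 0.243% in P0. Of all genes measured on this strand 41.2% were higher, and 0.768% at least 2-fold higher. acdh-1, an acyl-CoA dehydrogenase gene, had 2414 sense reads in F1 and 555 in P0, a ratio of 2.64 (2.41 to 2.90), and the lysozyme gene lys-7 had 204 and 47, a ratio of 2.63 (1.91 to 3.70). The desaturase gene fat-6 had 532 and 126, a ratio of 2.56 (2.11 to 3.14). The 6 vitellogenin genes, which encode yolk proteins made in the adult hermaphrodite intestine, held 5.49% of sense reads in F1 and 4.88% in P0, with 5 of 6 higher. vit-2 was the exception at 0.956 (0.943 to 0.969), while vit-6 was level at 1.00 (0.989 to 1.01). Muscle genes had 27 of 31 higher and a summed ratio of 1.16 (1.14 to 1.17). The near-identical Hsp70 genes F44E5.4 and F44E5.5 had 391 and 393 sense reads in F1 and 73 and 86 in P0, and their reads may be shared. In F3 they had 290 and 315, and in HT115 66 and 64. On the antisense strand the intestine genes held 0.00165% of reads in F1 and 0.00166% in P0, and the vitellogenins 0.000385% and 0.000315%. The loci T27A10.8 and F59D8.3 hold reads of the yolk genes' own strand. The part of body tissue, yolk and moult markers in the antisense differences was not tested.

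MicroRNAs were lower in F1 on the sense strand when read against the sense total. Of 48 measured microRNA genes 45 were lower in F1 and 3 higher, with a median log2 ratio of -0.67 and 8 at least 2-fold lower. Of all genes measured on this strand 58.8% were lower and 1.59% at least 2-fold lower, with a median of -0.06. MicroRNA sense reads made up 1.14% of the sense reads in F1 and 1.66% in P0. They made up 0.507% and 0.505% of the library, a ratio of 1.00 (0.992 to 1.02). Sense reads of all genes had a ratio of 1.46 on that scale, so microRNAs were level there but below all genes on both scales. mir-35, of a family expressed in oocytes and embryos, had 6571 sense reads in F1 and 4970 in P0, a ratio of 0.802 (0.773 to 0.833) over the sense total and 1.17 (1.13 to 1.21) over the total of both strands. mir-253 was the lowest at 0.260 (0.192 to 0.349), with 66 and 154 reads, which is short of 4-fold. The genes at least 4-fold lower on this strand were H05C05.3, with 5.06 sense reads per 1000000 in F1 and 43.6 in P0, and F52C6.14, with 20.5 and 97.9.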

How the data were processed

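The authors deposited read counts per annotated transcript, with a sense and an antisense column per library. The submitters' processing notes name Bowtie2, but its version, the counter, the annotation and the build were not given in the sources used here. Columns carry no names: the antisense column was recognised by the microRNAs, of whose reads it holds 0.207% in F1 and 0.356% in P0. Counts were summed per gene (45510 genes, 44852 of them in Ensembl release 115 of WBcel235). The 3 lines per library that name no gene (0.000296% of reads in F1, 0.000288% in P0) were left out. Log2 ratios had 0.5 added to each count. Named genes were oma-1, its relatives and neighbours and 9 germline genes, the 10 highest and lowest ratios overall and among protein-coding genes with no structural RNA opposite, the most abundant and most different members of 32 lists, and the 10 largest gains and losses of sense reads; members of lists and other genes past 2-fold were named after their values were seen. The members and lists were chosen with earlier results of these data known. Scaling alternatives used edgeR 4.0.16 (TMM) and DESeq2 1.42.0 (median of ratios), for size factors only. The calculation of ratios, counts and intervals was run on simulated counts with planted folds and counting error only. That run checks the calculation and holds no variation between libraries.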

Additional observations from a re-analysis of the deposited data

How the results depend on the processing

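With 1 library per group, counting intervals do not cover variation between animals or libraries, and no replicate could be left out. No paired analysis was possible because each group has 1 library. Median-of-ratios scaling, TMM, a pseudocount of 5, the highest transcript in place of the sum, and totals without the 20 most abundant genes and oma-1 or without the loci opposite structural RNA genes left all 4 counts of genes past a fold within 1.5 times. Of the other settings, counting over the total of both strands gave 0 genes 4-fold higher, and 6 higher and 78 lower at 2-fold. Summing both strands gave 5 genes 4-fold higher, and 95 higher and 68 lower at 2-fold. A minimum of 10 CPM gave 12 genes 4-fold lower and 122 genes 2-fold lower, and a minimum of 100 CPM gave 0 higher and 2 lower at 4-fold, and 7 and 5 at 2-fold. No minimum gave 785 higher and 905 lower at 4-fold, and 3300 and 3804 at 2-fold. That setting takes in genes below the reported minimum level, down to those with few reads, where the count added before the ratio weighs most. Genes that meet the reported minimum keep the same ratios there. They account for 1 higher and 6 lower calls at 4-fold, and 32 and 45 at 2-fold. The rest come from genes below that minimum. The number of genes compared differs with the minimum, the strands and the gene set, so the counts are not shares of a common total. Protein-coding genes alone gave 3 genes 2-fold higher. Genes with no gene on the other strand, a setting chosen after seeing the data, gave 0 genes 4-fold higher, and 5 higher and 23 lower at 2-fold. The oma-1 log2 ratio of -2.19 became -2.51 over the total of both strands and -2.102 with both strands summed. Of 25 list medians 15 changed sign under at least 1 alternative. Among them were those of ribosomal proteins (-0.13) and X-linked genes (-0.19) over the total of both strands. Those of oocyte regulators (0.023) with both strands summed and of long intergenic noncoding RNAs (0.11) with no minimum were others. Apart from the denominators' own shift, the cause was not tested.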
